A study of Mus musculus with 9 samples.

Results

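Messenger RNA of complement C3 and 8 related complement components was examined in cultured endothelial progenitor cells (EPCs) of mouse bone marrow. The 9 genes were chosen by symbol as components of the classical and alternative pathways and of their common step: C3, C4b, Cfb, C1qa, C1qb, C1qc, C2, Serping1 and C1ra. The deposited tables hold 2810 genes in all, and a table lists only the genes that changed 2-fold or more between its 2 groups and passed the authors' screen. Of the 9 genes, 5 were listed in at least 1 table. C1qb, C1qc, C2 and Serping1 were listed in none, so their levels were not analysed here.

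Complement is a cascade of plasma proteins that tags cells and debris for removal, recruits leukocytes and can lyse cells. The classical pathway starts when C1q, with the proteases C1r and C1s, binds antibody or damaged surfaces and cleaves C4 and C2. The alternative pathway amplifies through factor B, and both converge on the cleavage of C3. The liver is the main source of the circulating proteins, while macrophages and many other cells make some of them locally, C1q above all in myeloid cells, and interferon gamma and other inflammatory cytokines are known inducers of several of the genes.

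EPCs were compared between 3 groups of C57BL/6J mice, all 8 weeks old, with no transgene or allele named: males (M-EPCs), females with ovaries (F-EPCs) and females ovariectomized at around 35 days of age (OVX-EPCs). The study asked which differences between male and female cells persist without estrogen. In all groups bone marrow was depleted of lineage-positive cells, sorted magnetically for Sca-1 and CD31 and expanded in EGM-2, an endothelial growth medium, so the cells profiled were a cultured bulk population. Each group had 3 libraries, 9 in all. The study's methods call the replicates biological but do not say whether the libraries of a group came from separate animals, so p-values measure only the spread between these libraries. In bulk RNA, fewer cells of a type and less RNA per cell cannot be told apart.

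The reads recovered over the listed genes, which are only part of each library, were 1602317 to 2070442 per library in the table of M-EPCs and F-EPCs, 707791 to 923145 in that of M-EPCs and OVX-EPCs, and 454298 to 468833 in that of F-EPCs and OVX-EPCs. All values are normalized counts, in which the authors scaled each library's reads separately for each table, so the levels of a library differ slightly between tables. The same M-EPC libraries enter both comparisons with females, and the same holds for the F-EPC and OVX-EPC libraries in their comparisons.

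C3, the protein on which all complement pathways converge, had a much higher mRNA level in M-EPCs than in either female group. The gene lies on the minus strand of chromosome 17 from 57203970 to 57228136 in GRCm38, with 41 exons in its longest coding transcript of 5136 bases. The 250 bases before its start, chr17:57228137-57228386 on the minus strand in GRCm38.p6 from RefSeq, are shown because C3 is the common step of the pathways, with the only match to a searched motif in capitals:
C3: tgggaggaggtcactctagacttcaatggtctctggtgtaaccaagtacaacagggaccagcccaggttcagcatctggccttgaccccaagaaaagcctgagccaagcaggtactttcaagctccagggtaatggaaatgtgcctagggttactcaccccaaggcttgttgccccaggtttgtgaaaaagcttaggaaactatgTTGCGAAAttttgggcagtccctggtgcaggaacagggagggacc

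4 short motifs were searched on both strands of the 250 bases before each start in the 32851 promoters of the RefSeq table. The interferon-stimulated element GAAANNGAA was found in 7.13% of all promoters, the gamma-activated site TTCNNNGAA in 7.02%, the kappa-B-like GGANNTTCC in 3.59% and the C/EBP-like TTGCNNAA in 9.56%. In C3 only the last had a match, TTGCGAAA, from 45 to 38 bases before the start. Of the 9 genes, 4 had an entry in the promoter table, and in C1qb, C1qc and C1ra none of the 4 motifs was present. A match describes the letters and is not evidence of binding.

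In the table of M-EPCs and F-EPCs, C3 stood at 4892, 4680 and 4924 normalized counts in the M-EPC libraries and at 583.7, 551.0 and 579.1 in the F-EPC libraries. All M-EPC libraries lay far above all F-EPC libraries, and within each group the libraries lay close together. The means were 4832 ± 132.4 and 571.3 ± 17.7 (SD, n = 3 each), an 8.46-fold difference. On the log2(normalized count + 1) scale C3 was higher in M-EPCs by 3.08 with a standard error of 0.09 (limma, adjusted p = 1.50e-05 over the 2093 listed genes).

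In the table of M-EPCs and OVX-EPCs, C3 stood at 5006, 4786 and 5028 in the M-EPC libraries. The OVX-EPC libraries held 719.6, 725.4 and 725.5. The groups again did not overlap, and the OVX-EPC libraries differed among themselves by less than 1 SD of the M-EPC libraries. The means were 4940 ± 133.8 and 723.5 ± 3.38 (SD, n = 3 each), a 6.83-fold difference. The log2 difference was 2.77 with a standard error of 0.12 (limma, adjusted p = 3.39e-05 over 1317 listed genes). C3 had the 78th largest of 1042 increases in M-EPCs against F-EPCs, and the 35th largest of 549 against OVX-EPCs.

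C3 was not listed between F-EPCs and OVX-EPCs. Dividing the OVX-EPC values by 1.02, the ratio of the M-EPC libraries between their tables, puts all 9 libraries on 1 scale, although the tables were normalized separately and no test was made across them. On that scale the OVX-EPC libraries held 703.8, 709.5 and 709.6 counts of C3, all above the highest F-EPC library. The mean of 707.6 ± 3.31 was 1.24-fold that of F-EPCs. On that scale the order of C3 levels was M-EPCs, OVX-EPCs, F-EPCs, with the last 2 close but not overlapping. The order of the female groups depended on the scaling. The log2 differences of M-EPCs over F-EPCs and over OVX-EPCs were 3.17 and 2.97 with edgeR's TMM factors, which kept it, but 2.73 and 3.40 with DESeq2's own size factors, which put F-EPCs above OVX-EPCs.

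C4b, a C4 gene of the mouse whose product is cleaved by C1s and forms part of the classical C3 convertase, was the only member listed in all 3 tables. It lies on the minus strand of chromosome 17 from 34728380 to 34743882, in the cluster of complement genes within the major histocompatibility complex. In the table of M-EPCs and F-EPCs it stood at 956.5, 915.2 and 952.9 normalized counts in the M-EPC libraries and at 64.6, 60.0 and 43.6 in the F-EPC libraries. The F-EPC libraries all lay far below the lowest M-EPC library. The means of 941.5 ± 22.9 and 56.1 ± 11.1 (SD, n = 3 each) differed 16.8-fold, the largest fold of the 5 listed members in any table. The log2 difference was 4.06 with a standard error of 0.17 (limma, adjusted p = 4.15e-05).

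Against OVX-EPCs, C4b stood at 978.8, 935.9 and 973.1 in the M-EPC libraries. The OVX-EPC libraries held 214.8, 170.7 and 198.7. The groups did not overlap, with M-EPCs 4.94-fold higher by their means of 962.6 ± 23.3 and 194.8 ± 22.3 (SD, n = 3 each). The log2 difference was 2.31 with a standard error of 0.14 (limma, adjusted p = 8.85e-05), and 2.93 with DESeq2's own size factors.

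C4b also differed between the 2 female groups. In their table it stood at 67.0, 62.2 and 45.2 in the F-EPC libraries. The OVX-EPC libraries held 218.7, 173.2 and 202.3. Every OVX-EPC library was above every F-EPC library, and the means of 58.2 ± 11.4 and 198.1 ± 23.0 (SD, n = 3 each) differed 3.41-fold. On the log2 scale C4b was at -1.76 in F-EPCs relative to OVX-EPCs, with a standard error of 0.20 (limma, adjusted p = 5.26e-04 over 811 listed genes). The call was lost when the libraries were rescaled on the listed genes alone, where the log2 difference was -0.64 with edgeR's TMM factors and -0.65 with DESeq2's own size factors, and the median of all listed genes moved by 1.14 and 1.13. The order of C4b levels was thus M-EPCs, OVX-EPCs, F-EPCs, and it kept this direction with both rescalings. Mouse C4b has a near copy, C4a, and the counting could have split reads between them, so the levels are uncertain to that extent.

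C1qa, which encodes the A chain of C1q, was the most abundant listed member, also per kb of transcript. It lies on chromosome 4 from 136895917 to 136898803, in a cluster of 18.7 kb with C1qb and C1qc, neither of which was listed. The M-EPC libraries held 20590, 19061 and 21051 normalized counts of C1qa and the F-EPC libraries 9006, 8995 and 8415. The groups were apart, and each was tight. The means of 20234 ± 1041 and 8805 ± 338.3 (SD, n = 3 each) differed 2.30-fold, with a log2 difference of 1.20 and a standard error of 0.09 (limma, adjusted p = 1.61e-04). By level in M-EPCs C1qa ranked 17th of the 2093 listed genes, without correction for length. It was not listed in either table with OVX-EPCs.

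C1ra encodes the protease C1r, which C1q activates, and was listed between M-EPCs and F-EPCs only. The gene lies on chromosome 6 from 124512405 to 124523443 and has a near copy, C1rb, close by, so its reads could have been split. The M-EPC libraries held 464.5, 428.4 and 460.3 normalized counts and the F-EPC libraries 242.4, 218.9 and 189.6. The groups did not overlap, but the difference was the smallest among the listed members, 2.08-fold between means of 451.1 ± 19.7 and 216.9 ± 26.4 (SD, n = 3 each). The log2 difference was 1.06 with a standard error of 0.12 (limma, adjusted p = 6.00e-04), and it fell under the threshold of 1, to 0.97, without F-EPC replicate 3.

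Cfb, which encodes factor B, the protease of the alternative C3 convertase, was listed between M-EPCs and OVX-EPCs only. Its level was close to the limit of detection. The recovered reads were 28, 14 and 17 in M-EPC and 4, 1 and 11 in OVX-EPC libraries, set against a floor of 3 reads that a count of 0 allows. These were 27.3, 12.9 and 20.8 against 3.85, 0.943 and 10.6 normalized counts, so the highest OVX-EPC library lay just under the lowest M-EPC library. The means of 20.3 ± 7.22 and 5.14 ± 4.96 (SD, n = 3 each) differed 3.95-fold, with a log2 difference of 2.09 and a standard error of 0.68 (limma, adjusted p = 0.0241). Leaving out M-EPC replicate 1, M-EPC replicate 3 or OVX-EPC replicate 1 raised the limma adjusted p to 0.0721, 0.0604 and 0.0617. The log2 difference was 1.44 without OVX-EPC replicate 2 and 2.73 without OVX-EPC replicate 3. Cfb on chromosome 17, from 34856374 to 34862518, adjoins C2 and overlaps a read-through transcript, so its few reads are also uncertain in origin.

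**Figure D1:**
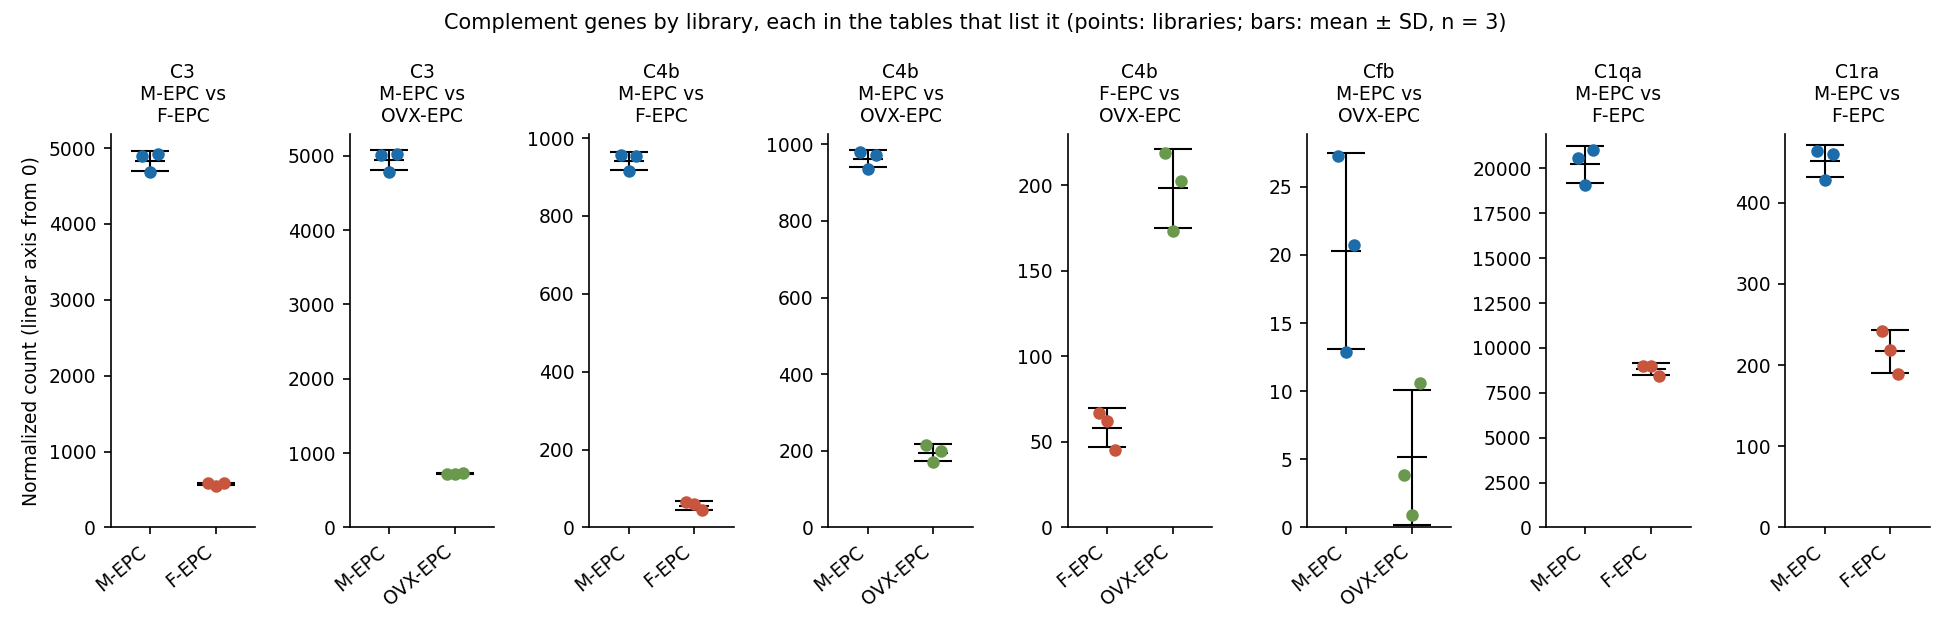
Normalized count (linear axes from 0) of each listed complement gene in each library, in every table that lists it; points are libraries and bars are mean ± SD (n = 3). In no panel do the 2 groups overlap, with Cfb the closest (12.9 in the lowest M-EPC library, 10.6 in the highest OVX-EPC library).

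All 4 members listed between M-EPCs and F-EPCs were called higher in the male cells, as were all 3 listed between M-EPCs and OVX-EPCs. With DESeq2's own size factors 2 of the 4 lost their calls, C1qa at a log2 difference of 0.85 and C1ra at 0.70. The 1 member listed for F-EPCs against OVX-EPCs was called lower in F-EPCs. A gene was called where its limma adjusted p was under 0.05 and its log2 difference was 1 or more in either direction. Since only genes past the authors' screen were listed, nearly every listed gene was called: 97.6%, 98.8% and 98.2% in the 3 comparisons, and 99.8%, 99.8% and 99.9% with edgeR on recovered reads. Likewise the groups did not overlap in 98.3%, 99.2% and 98.9% of listed genes. The calls and the absence of overlap are thus no result about the complement genes. As to direction, 48.4% of genes listed for M-EPCs against F-EPCs were called higher in the males, as were 40.8% of those for M-EPCs against OVX-EPCs, while 67.3% of those for F-EPCs against OVX-EPCs were called lower in F-EPCs. With DESeq2's own size factors the shares higher shifted, to 622 of 1672 called genes in the first comparison, 549 of 1044 in the second and 255 of 380 higher in F-EPCs in the third, where edgeR's TMM factors gave 255 of 404. The exact permutation test over 3 against 3 libraries gave p = 0.10 (two-sided) for every member, the smallest that it allows. The median log2 difference of the listed members was 2.14, 2.31 and -1.76 in the 3 comparisons, beside -0.99, -1.26 and -1.31 over all listed genes.

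Levels of different genes were compared per kb of the longest coding transcript, in the table of M-EPCs and F-EPCs. Per kb, C1qa had a mean of 19456 in M-EPCs and 8467 in F-EPCs, and C3 of 940.8 and 111.2. C4b followed with 175.0 and 10.4, and C1ra with 151.3 and 72.8. C1qa thus stood 20.7 times above C3 in M-EPCs and 76.1 times in F-EPCs. The order of C4b and C1ra was not the same in the groups, with C4b above C1ra in M-EPCs and under it in F-EPCs.

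A list of 48 other complement genes was examined by role. Of them 5 were listed between M-EPCs and F-EPCs, with 2 called higher in M-EPCs and 3 called lower. For M-EPCs against OVX-EPCs 4 were listed, all called lower. For F-EPCs against OVX-EPCs 3 were listed, all called lower in F-EPCs. Of all listed genes 49.3%, 58.0% and 67.3% were called lower in the first-named group of these comparisons, and the difference of these small counts from those shares was not tested. The median log2 difference of those listed was -1.17, -2.04 and -2.05, beside -0.99, -1.26 and -1.31 over all listed genes.

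Among the genes that start the lectin pathway, Masp1, which encodes a protease that acts beside mannose-binding lectins, held 36.2, 26.0 and 17.9 normalized counts in the M-EPC libraries and 8.08, 0.968 and 3.79 in the F-EPC libraries, a log2 difference of 2.60. Fcna, encoding ficolin A, held 72.3, 84.4 and 69.3 against 15.1, 37.8 and 29.4, a log2 difference of 1.51. Fcna was also at -2.05 in F-EPCs relative to OVX-EPCs. These are low levels, and in neither gene did the groups overlap. Neither of the 2 other alternative pathway genes and none of the 7 genes of the terminal, membrane-attacking part was listed in any table.

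Among the regulators, Cd55, encoding decay accelerating factor, which dissociates C3 convertases on the cell surface, differed in the direction opposite to C3. It held 45.7, 57.5 and 52.6 normalized counts in the M-EPC libraries and 112.1, 191.7 and 169.7 in the F-EPC libraries, a log2 difference of -1.56. Against OVX-EPCs the log2 difference was -1.61. All female libraries were above all male ones.

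Clu, encoding clusterin, an inhibitor of the terminal complex and a chaperone, had the largest difference of the complement genes reported. The M-EPC libraries held 10.5, 14.4 and 7.17 normalized counts and the F-EPC libraries 260.5, 173.3 and 203.8, a 19.9-fold difference with the F-EPCs higher (log2 -4.22). The OVX-EPC libraries held 500.9, 500.9 and 482.4, which was 45.3-fold above the M-EPCs (log2 -5.43). Clu was also at -1.21 in F-EPCs relative to OVX-EPCs. Csmd1, encoding a membrane protein with complement inhibitor domains, was low throughout and was highest in OVX-EPCs, with a log2 difference of -2.47 in M-EPCs and -2.26 in F-EPCs relative to them.

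Of the receptors, C5ar1, encoding the receptor of the leukocyte attractant C5a, held 7537, 7341 and 7370 normalized counts in the M-EPC libraries and 16672, 17075 and 16397 in the F-EPC libraries. It was 2.25-fold higher in F-EPCs, a log2 difference of -1.17. Itgax, encoding CD11c, part of complement receptor 4, was listed against OVX-EPCs with a log2 difference of -1.21. The directions of all these genes held with TMM and with DESeq2's own size factors. The calls of Cd55 and Itgax against OVX-EPCs were lost with DESeq2's own size factors, at -0.999 and -0.58, and those of Fcna, Clu and Csmd1 between F-EPCs and OVX-EPCs were lost with both, where Clu was at -0.06 and -0.07.

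**Figure D2:**
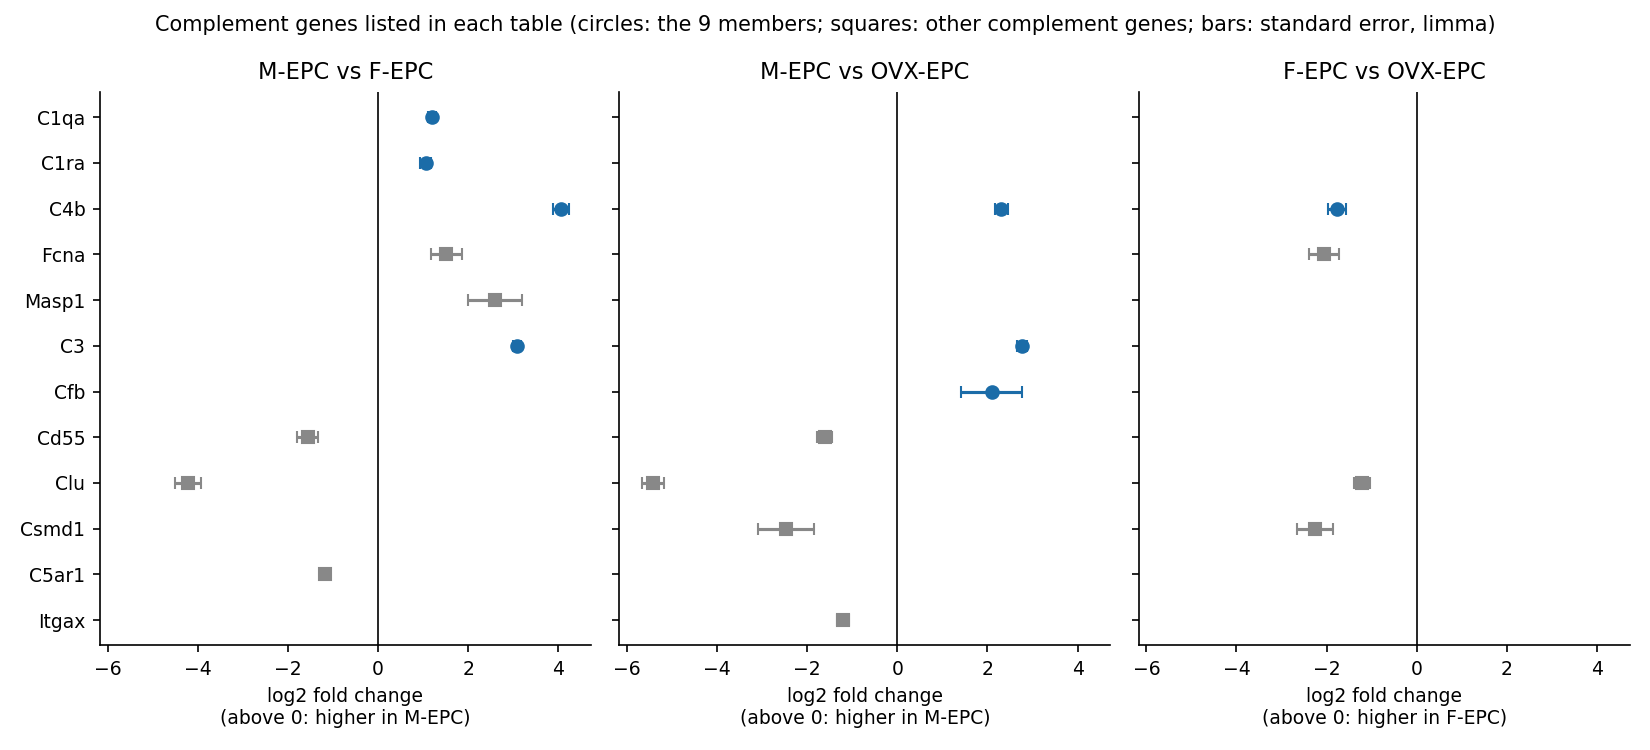
log2 fold change (horizontal axis, limma on log2 of normalized count + 1) of complement genes listed in each of the 3 tables, with bars for the standard error; circles are the 9 members and squares other complement genes. C3 and C4b lie to the right in both comparisons of M-EPCs, Cd55 and Clu to the left, and every gene shown for F-EPCs against OVX-EPCs lies to the left.

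Cd55 and Clu were also listed in both tables with M-EPCs and could be placed on the 9-library scale. Cd55 was at 157.8 ± 41.1 in F-EPCs and 160.7 ± 19.8 in OVX-EPCs (SD, n = 3 each). On this scale the female groups overlapped, with an OVX-EPC mean 1.02-fold that of F-EPCs. In C4b and Clu they did not overlap, and OVX-EPC means were 3.40-fold and 2.28-fold those of F-EPCs. These ratios depended on the scaling. With DESeq2's own size factors the log2 differences of M-EPCs relative to F-EPCs and to OVX-EPCs were -1.96 and -0.999 for Cd55, which puts F-EPCs above OVX-EPCs, and they were -4.63 and -4.83 for Clu and 3.72 and 2.93 for C4b, which brings the female groups closer together.

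**Figure D3:**
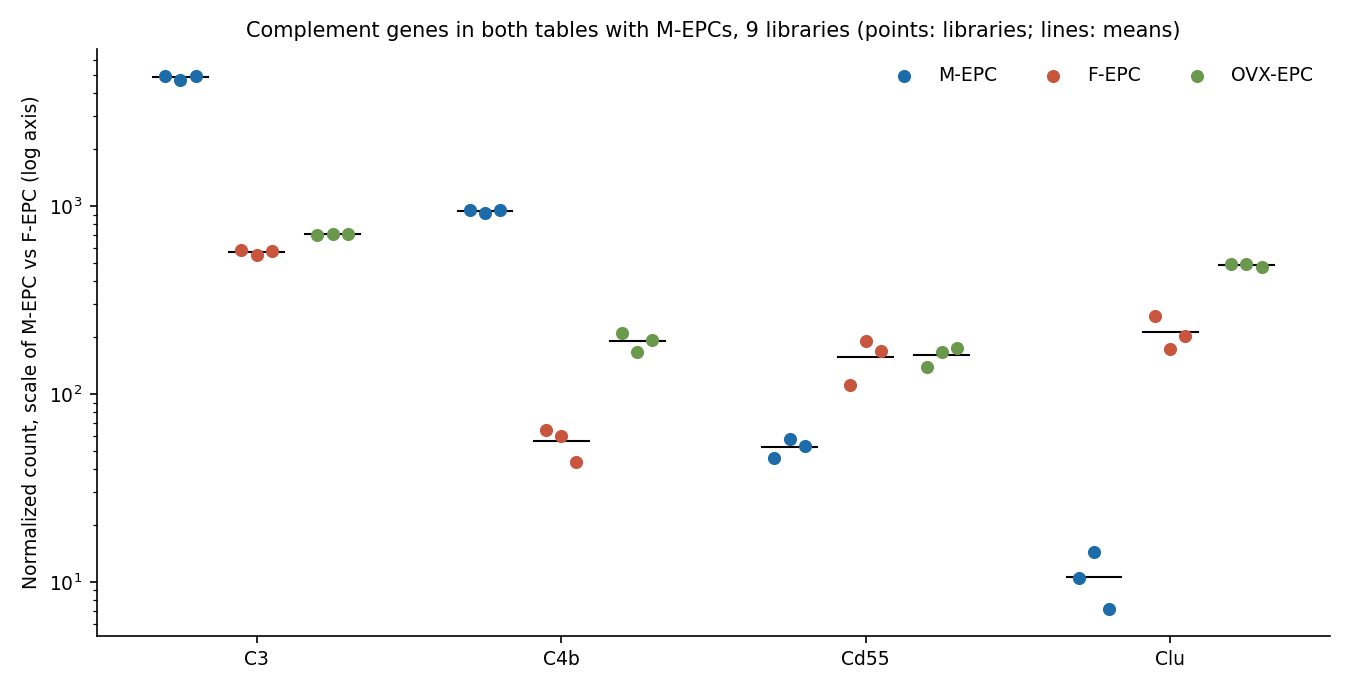
Normalized count (log axis, scale of the M-EPC and F-EPC table) of 4 complement genes listed in both tables with M-EPCs, in 9 libraries; points are libraries and lines are group means. M-EPCs lie above both female groups in C3 and C4b and under both in Cd55 and Clu, and OVX-EPCs lie apart from F-EPCs in C3, C4b and Clu.

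The genes most like C3 over the 9 libraries were found among the 806 other genes listed in both tables with M-EPCs, by the root mean square difference of log2(normalized count + 1) after centring each gene. Socs1, which encodes an inhibitor of cytokine signalling, was nearest at 0.23, then Gm12185 at 0.27, Gm18301 at 0.29, and Tgtp2, encoding an interferon-inducible GTPase, at 0.36. The median over all genes compared was 2.09. Socs1 had means of 501.8 ± 23.4 in M-EPCs, 77.5 ± 8.28 in F-EPCs and 98.7 ± 9.06 in OVX-EPCs (SD, n = 3 each). C4b was compared in the same way after its values had been seen. Its nearest profile was Iigp1, encoding an interferon-inducible GTPase, at 0.17, followed by the chemokine gene Ccl5 at 0.29, the guanylate-binding protein gene Gbp5 and the transcript AW112010 at 0.32 each, and the chemokine gene Cxcl10 at 0.32. The median over all genes was 2.32. Iigp1 had means of 19248 ± 508.3 in M-EPCs, 1147 ± 101.0 in F-EPCs and 3622 ± 331.9 in OVX-EPCs (SD, n = 3 each).

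**Figure D4:**
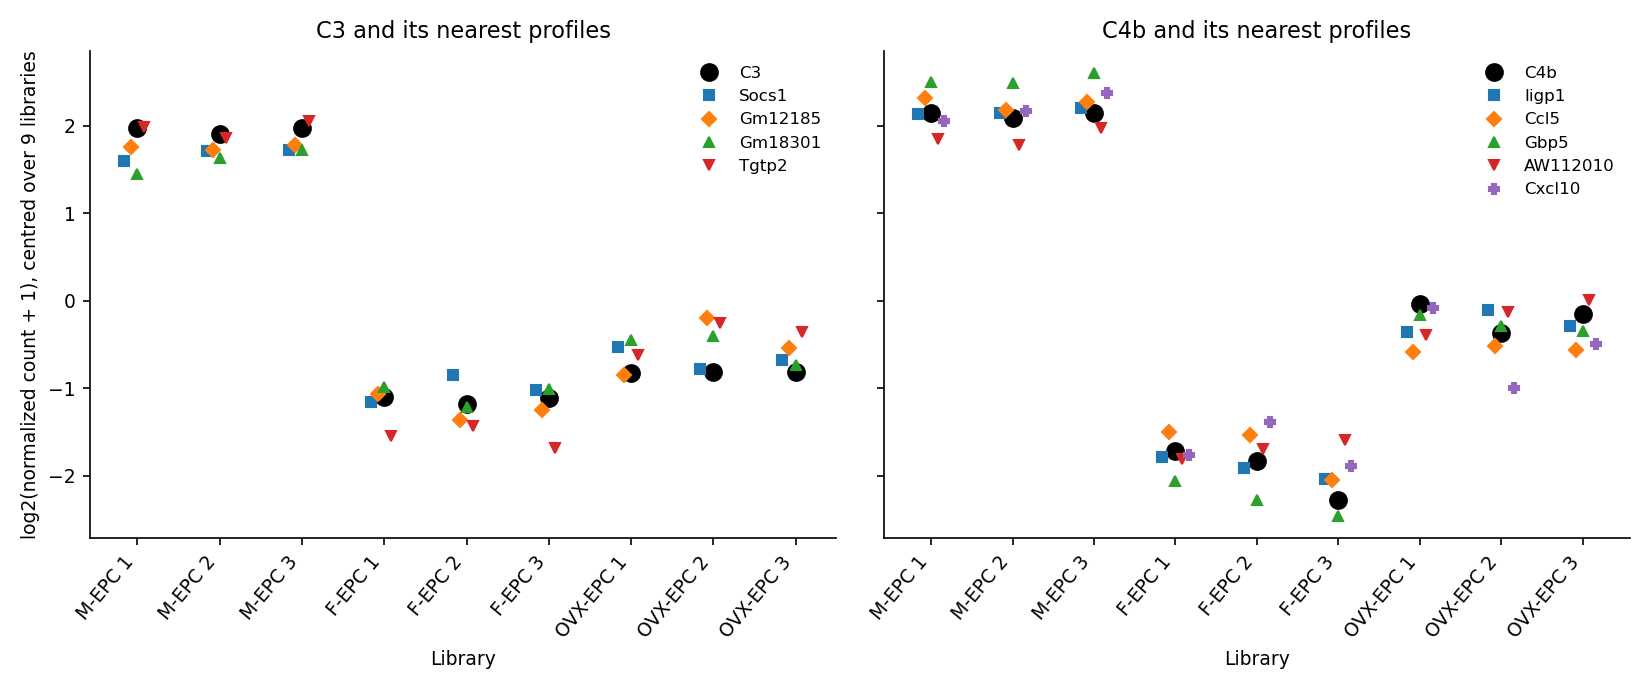
log2(normalized count + 1), centred over the 9 libraries, for C3 (left) and C4b (right) with genes of near profile; each point is a library. In both panels M-EPC libraries lie highest. On this scale the OVX-EPC libraries of C4b itself lie further above its F-EPC libraries than those of C3, at ratios of 3.40-fold and 1.24-fold. Both ratios depend on the scaling, and DESeq2's own size factors put C3 lower in OVX-EPCs than in F-EPCs.

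Of 21 genes taken as known inducers or regulators of complement transcription, 4 were listed between M-EPCs and F-EPCs, all called higher in M-EPCs, beside 48.4% of all listed genes. Ifng, encoding interferon gamma, held 18.1, 18.9 and 19.1 normalized counts in the M-EPC libraries and was at 0 in all F-EPC libraries, which allows up to 3 reads a library. The others were Irf1, a transcription factor of the interferon response, at a log2 difference of 2.72, Ciita, the activator of class II genes, at 5.05, and Il1b, encoding interleukin 1 beta, at 2.10. Against OVX-EPCs 4 were listed, with Irf1 at 1.40, Ciita at 2.27 and Il1b at 3.32 called higher in M-EPCs and the nuclear receptor gene Nr1h3 at -1.16 called lower, beside 40.8% of all listed genes called higher. Between F-EPCs and OVX-EPCs, Irf1 at -1.32 and Ciita at -2.79 were called lower in F-EPCs, as were 67.3% of all listed genes. With both rescalings on listed genes the directions held, while the calls of Irf1 between F-EPCs and OVX-EPCs and of Nr1h3 were lost. Between F-EPCs and OVX-EPCs, Irf1 was at -0.19 with edgeR's TMM factors and -0.20 with DESeq2's own size factors, and Ciita at -1.65 and -1.66. On the 9-library scale Irf1 and Ciita were higher in OVX-EPCs than in F-EPCs, while Il1b was lower in OVX-EPCs, at 0.476-fold the mean of F-EPCs. The part of these genes in the complement differences was not tested.

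Markers of other cell types moved with the groups, in tables where 49.3%, 58.0% and 67.3% of all listed genes were called lower in the first-named group. None of 10 macrophage markers was listed in any table. Between M-EPCs and F-EPCs, 4 of 8 dendritic cell markers were listed, all lower in M-EPCs, with summed normalized counts of 0.898 to 3.81 in M-EPC libraries and 126.9 to 166.6 in F-EPC libraries, and Cd209a was at 0 in every M-EPC library. Of 7 neutrophil markers 5 were listed, all lower in M-EPCs, with sums of 78.0 to 106.0 against 605.2 to 660.4. Of 5 lymphocyte markers 4 were listed, all lower in M-EPCs, with sums of 29.6 to 39.0 against 132.7 to 170.7. Of 8 endothelial markers, which check the label of the cells, 4 were listed, with sums of 786.7 to 827.2 against 2886 to 2923. Vwf alone gave 215.1 to 251.5 and 2306 to 2409 of these counts, so the difference of the sums mostly reports Vwf. Kdr, Tie1 and Vwf were lower in M-EPCs and Pecam1, which encodes the CD31 used for sorting, was higher. None of the 4 was at 0 in any library. Of 7 stromal markers 2 were listed, both higher in M-EPCs, with sums of 316.9 to 342.2 against 105.2 to 123.2.

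Between M-EPCs and OVX-EPCs the sums of listed dendritic cell markers (5 of 8) were 1151 to 1264 and 2782 to 3120, with Cd209a at 0 in every M-EPC library. Itgax alone gave 1148 to 1263 and 2654 to 2972 of these counts, and no other listed dendritic cell marker was above 3.90 in an M-EPC library. Those of endothelial markers (3 of 8) were 310.1 to 345.3 and 3694 to 4030, of which Vwf alone gave 220.1 to 257.2 and 3228 to 3583. The sums of neutrophil markers (3 of 7) were 23.4 to 53.3 and 179.2 to 239.3. Those of stromal markers (2 of 7) were 20.8 to 41.3 and 65.1 to 105.0, and those of lymphocyte markers (5 of 5) 44.1 to 56.5 and 286.8 to 300.6. Every listed marker of these lists was called lower in M-EPCs, the direction opposite to C3, C4b and Cfb, and lower was also the commoner direction of the table, with 58.0% of all listed genes.

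Between F-EPCs and OVX-EPCs, where C4b was higher in OVX-EPCs, the sums of stromal markers (5 of 7) were 180.0 to 253.5 and 868.9 to 999.2, and those of neutrophil markers (5 of 7) 574.9 to 630.6 and 139.2 to 163.0. Of the neutrophil markers 4 were called higher in F-EPCs, while Elane had means of 6.84 and 28.5 and was not called (log2 -2.39, limma adjusted p = 0.0738). The dendritic cell sums (2 of 8) were 97.3 to 139.3 and 90.2 to 118.7, in which the 2 markers went opposite ways, Ccr7 with means of 95.1 in F-EPCs and 23.6 in OVX-EPCs and Siglech with 22.8 and 83.3. The endothelial sums (1 of 8) were 156.4 to 171.8 and 371.2 to 387.6, and no lymphocyte marker was listed. Marker values with edgeR's TMM and DESeq2's own size factors are not given. Those factors moved the median of all listed genes by 1.14 and 1.13 in this comparison. No listed marker outside the dendritic cell list was at 0 in all libraries of a group. The part of these cell types in the complement differences was not tested.

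The genomic surroundings of the members were examined within 250 kb. Of 19 other protein-coding genes near C3, 2 were listed between M-EPCs and F-EPCs, Slc25a23 at a log2 difference of 1.24 and Tnfsf9 at -1.66, and none between M-EPCs and OVX-EPCs. Of 30 near C4b, 6 were listed for M-EPCs against F-EPCs, 4 of them higher in M-EPCs, beside 48.4% of all listed genes called higher. In the comparison with OVX-EPCs 3 were listed for M-EPCs and 1 for F-EPCs. C4b, Cfb and C2 lie within 169.9 kb, and Cfb and C4b were both higher in M-EPCs than in OVX-EPCs. Of 37 near Cfb, 6 were listed for M-EPCs against OVX-EPCs, 3 higher in M-EPCs, among them C4b, and 3 lower, among them Mpig6b at a log2 difference of -5.73 and Ly6g6f at -5.22, where 40.8% of all listed genes were called higher. Of 5 near C1qa none was listed, and of 16 near C1ra 2 were listed, both lower in M-EPCs.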

How the data were processed

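RNA sequencing of 3 M-EPC, 3 F-EPC and 3 OVX-EPC libraries was analysed, grouped by the sample titles. The authors mapped reads with HISAT2, quantified them with Cuffquant and Cuffnorm of Cufflinks and compared groups with DEseq, and the submitters' processing notes name mm10. The annotation version and the strand setting of the counting are not given in the sources used here. The deposited signal is a normalized count per gene and library, scaled separately in each of 3 tables. When multiplied by size factors of 0.819 to 1.11, 100% of values came out as whole reads. The tolerance was 0.001 at low counts and grew with the count at higher ones, where the check is weaker. The authors' own log2 fold change and p-value columns hold their findings and were not used.

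limma 3.58.1 in R 4.3.3 was fitted in each table to log2(normalized count + 1) of every listed gene, with no covariate, no filter and Benjamini-Hochberg adjustment. Single values were compared by exact permutation. edgeR 4.0.16 and DESeq2 1.42.0 on recovered reads, other filters and pseudocounts, a block and leaving out each library were alternatives. Transcript lengths and positions are from GENCODE M21 on GRCm38. The genes named are the 9 members, the listed genes of the fixed complement, inducer and marker lists, and 4 of the 5 nearest profiles of C3; the C4b profiles, the KEGG genes and the neighbouring genes were chosen once values had been seen. Results of 2 list genes are not reported here, and the counts of their lists leave them out. Members and lists were chosen with earlier results of these data known. Read floors cover counting error only, while SDs and standard errors describe the spread between libraries.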

Additional observations from a re-analysis of the deposited data

How the results depend on the processing

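Of 111 refits of the members' log2 differences, 103 kept direction and call, 8 lost the call and none changed direction. Several of these refits could not move the log2 difference. Dropping the fold threshold repeated the main fit, and the replicate block and the filter on a mean of 50 left each value as it was. With DESeq2's own size factors the members called for M-EPCs against F-EPCs fell to 2, with C1qa at 0.85 and C1ra at 0.70. With edgeR's TMM factors and with DESeq2's own size factors, 0 members were called between F-EPCs and OVX-EPCs, with C4b at -0.64 and -0.65 (edgeR and DESeq2 adjusted p = 0.0125 and 0.0129, so that the fold threshold was what it missed). Those scalings use listed genes alone and moved the median of all listed genes by 0.07 and -0.37 for M-EPCs against F-EPCs, by 0.20 and 0.63 for M-EPCs against OVX-EPCs, and by 1.14 and 1.13 for F-EPCs against OVX-EPCs. In the last comparison 404 and 380 of 811 genes were then called, 255 of them higher in F-EPCs in each case, against 796 called, 250 of them higher. DESeq2's own size factors called 1672 genes for M-EPCs against F-EPCs, 622 higher in M-EPCs, where limma called 2043 and 1012, and 1044 for M-EPCs against OVX-EPCs, 549 higher, where limma called 1301 and 537. A filter on a mean of 50 left 1356, 843 and 509 called genes, since fewer were tested, and Cfb could not be fitted under it.

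Leaving out 1 library at a time gave 3 to 4, 2 to 3 and 1 to 1 members called in the 3 comparisons. C3 ranged from 3.05 to 3.10 against F-EPCs and from 2.76 to 2.79 against OVX-EPCs, C4b from 3.90 to 4.17, from 2.21 to 2.38 and, in F-EPCs relative to OVX-EPCs, from -1.87 to -1.60. C1qa ranged from 1.17 to 1.24, C1ra from 0.97 to 1.14 and Cfb from 1.44 to 2.73. Libraries of the same replicate number did not deviate together over the listed genes (correlations of -0.0190 to 0.0324). This does not settle whether such libraries were handled together. A replicate block holds 1 library of each group, so it could not change the log2 differences. Only the p-values could change with it, and no member's call did. Among the members depth limits Cfb most, with 1 to 28 reads a library.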

Other observations

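Coagulation genes share a pathway entry with complement in the KEGG annotation that the authors deposited, and were looked up after the tables had been opened. Of 19 genes of that entry listed between M-EPCs and F-EPCs, 12 were outside the complement lists. Not all of the 12 are coagulation genes, since they include the integrin gene Itgb2l. Of the 12, 10 were called lower in M-EPCs, among them Itgb2l, 1 higher and 1 neither, beside 49.3% called lower of all genes listed. Those lower included Vwf, encoding the von Willebrand factor that tethers platelets, and F5, encoding coagulation factor V, at a log2 difference of -4.24. Serpinc1, encoding antithrombin, was higher at 1.25. Between M-EPCs and OVX-EPCs 10 such genes were listed, with 9 called lower in M-EPCs and Procr, encoding the endothelial protein C receptor, higher at 1.94, beside 58.0% called lower of all genes listed. For F-EPCs against OVX-EPCs 5 were listed, 2 called higher and 3 lower in F-EPCs, beside 67.3% called lower of all genes listed. The 3 lower were F5 at -1.01, F10 at -1.23 and Serpinb2 at -1.32. Their values with edgeR's TMM and DESeq2's own size factors are not given. Those factors moved the median of all listed genes by 1.14 and 1.13 in this comparison. The relation of these genes to the complement differences was not tested.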
